A study of Mus musculus with 17 samples.

Results

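Germinal centre (GC) B cells were sorted by the activity of the kinase CDK2 into a CDK2hi and a CDK2low population and sequenced as single cells, and the expression of all genes was compared between the 2 populations of the same mouse. A cell entered if hashtag antibodies gave it to a listed mouse, if 200 genes or more were detected, and if mitochondrial transcripts made up under 10% of its UMIs (unique molecular identifiers, each standing for 1 captured RNA molecule). There were 7503 CDK2hi cells and 4385 CDK2low cells, 11888 of the 63022 cell barcodes of all pools with gene expression. The replicate was the mouse. Of the listed mice, 7 had cells in both populations and 2 had none, so UMIs were summed over cells into 14 sums, 1 per mouse and population.

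B1-8hi B cells, whose antigen receptor binds the hapten NP, carried a CDK2 reporter in the Rosa26 locus, either alone or with H2B-GFP, a green histone that marks the nucleus. Which mice received which cells is not given in the sources used here. The cells were transferred into CD45.1 hosts that had been primed with ovalbumin (OVA) in alum, and the hosts received 25 μg NP-OVA in the footpads. On day 7 the hosts were given 5 μg anti-DEC-OVA, an antibody that delivers OVA to cells with the receptor DEC-205 and so increases the help that GC B cells get from T cells, and cells were collected 72 h later. Mice of both sexes aged 5 to 12 weeks were used, and no untreated mouse was sorted in this way. The reporter line went back to 1 founder made by CRISPR and was crossed to C57BL/6J.

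The reporter is a fragment of human DNA helicase B fused to tdTomato. It sits in the nucleus of a cell with little CDK2 activity and moves to the cytoplasm once CDK2 phosphorylates it. An imaging sorter separated live B220+ CD38− Fas+ tdTomato+ cells with a diffuse reporter (CDK2hi) from those with a nuclear reporter (CDK2low). The gate thus read the place of the reporter protein and no transcript. Each population was captured in 1 library, so that the population and the library cannot be told apart in any comparison below.

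CDK2 pairs with cyclin E at the start of S phase and with cyclin A while DNA is copied, and its activity climbs until mitosis. Cells that leave mitosis with low CDK2 activity pause before the next cycle, where inhibitors such as p27 and the pocket proteins of the retinoblastoma family hold back the E2F factors that switch on replication genes. GC B cells divide mainly in the dark zone (DZ) and somatic hypermutation (SHM) of their antibody genes takes place there. In the light zone (LZ) they take up antigen, present it on MHC class II to T follicular helper cells, and are selected to return to the DZ. Anti-DEC-OVA drives a run of divisions without return to the LZ.

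The CDK2low cells yielded more UMIs. The median UMIs per cell of a mouse lay between 8929 and 11686 in CDK2hi and between 10563 and 14842 in CDK2low, and the log2 median was lower in CDK2hi by 0.28 ± 0.08 (SD, 7 of 7 mice, exact two-sided sign-flip p = 0.0156, the smallest that 7 pairs allow). Median genes per cell were 3299 in CDK2hi and 3724 in CDK2low. The sums held 3988733 to 20888782 UMIs, from 278 to 1722 cells. The populations shared 5 barcodes among kept cells. Median mitochondrial UMIs were 3.11% in CDK2hi and 3.54% in CDK2low.

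Of the sort markers, Fas was at 192 ± 16.9 CPM (SD, n = 7; CPM are UMI counts scaled to a common total) in CDK2hi and 205 ± 7.69 CPM in CDK2low, and Ptprc, the gene of CD45 whose B cell form is B220, at 935.5 ± 53.5 and 1261 ± 82.9 CPM. Cd38, which the gate left out, was at 5.68 ± 1.46 and 12.1 ± 2.47 CPM, and the GC factor Bcl6 at means of 260.3 and 365 CPM. The 18 genes of a GC B cell identity list had a summed level of 11180 to 12196 CPM in CDK2hi and 13509 to 14987 CPM in CDK2low. Among the sums, the CDK2low cells of mouse M6 stood apart in T cell genes. Of the 3 CD3 chains, Cd3d was at 16.8 CPM, Cd3e at 10.7 CPM and Cd3g at 10.9 CPM there, against at most 1.73, 0.838 and 1.84 CPM in the other 13 sums. Of its 396 cells, 12 had UMIs of at least 2 of the 3 chains, against 2 or fewer cells in any other sum. The counts of genes over all cells, DZ-scored cells, G0-G1 cells and S cells were also made without this mouse, and none moved by more than 1.5 times, while the G2-M comparison did not include it. The summed T cell list lay between 55.0 and 79.3 CPM in CDK2hi and between 74.9 and 172 CPM in CDK2low, mostly from Lck. Naive B cell markers summed to 652 to 870 CPM in CDK2hi and 1361 to 1660 CPM in CDK2low, plasma cell markers to 1337 to 1645 CPM and 1117 to 1489 CPM. Myeloid markers, nearly all of it the widely expressed Cst3, summed to 171 to 232 CPM and 169 to 213 CPM, and erythroid and stromal markers to 51.5 to 73.0 CPM and 57.8 to 83.9 CPM. The part of such cells in the results was not tested.

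To ask where the reporter classes lie in the cell cycle, each cell was called G0-G1, S or G2-M from the transcripts of 43 S phase and 54 G2-M genes. Most CDK2low cells were called G0-G1. The share of G0-G1 cells was 76.4% ± 3.48 (SD, n = 7) in CDK2low and 9.37% ± 2.28 in CDK2hi. S cells made up 20.02% ± 2.95 of CDK2low and 39.8% ± 4.01 of CDK2hi cells. The largest ratio was in G2-M, with 3.56% ± 1.37 in CDK2low and 50.9% ± 3.94 in CDK2hi. The difference had the same sign in 7 of 7 mice for each phase, and the exact two-sided sign-flip test gave p = 0.0156, also after adjustment over the 3 phases, which is the smallest possible value.

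The classes did not overlap in any phase. In CDK2low the G0-G1 share ran from 69.8% to 81.5% and in CDK2hi from 7.21% to 13.1%. For G2-M the range was 2.02% to 5.09% against 46.4% to 57.7%, and for S it was 16.04% to 25.4% against 35.1% to 45.6%. Thinning each cell to 5264 UMIs, a depth that 6568 CDK2hi and 4132 CDK2low cells reached, gave G0-G1 shares of 76.1% and 8.68%. The phase calls read the same transcripts that are compared below and are cuts through a continuous score.

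**Figure D1:**
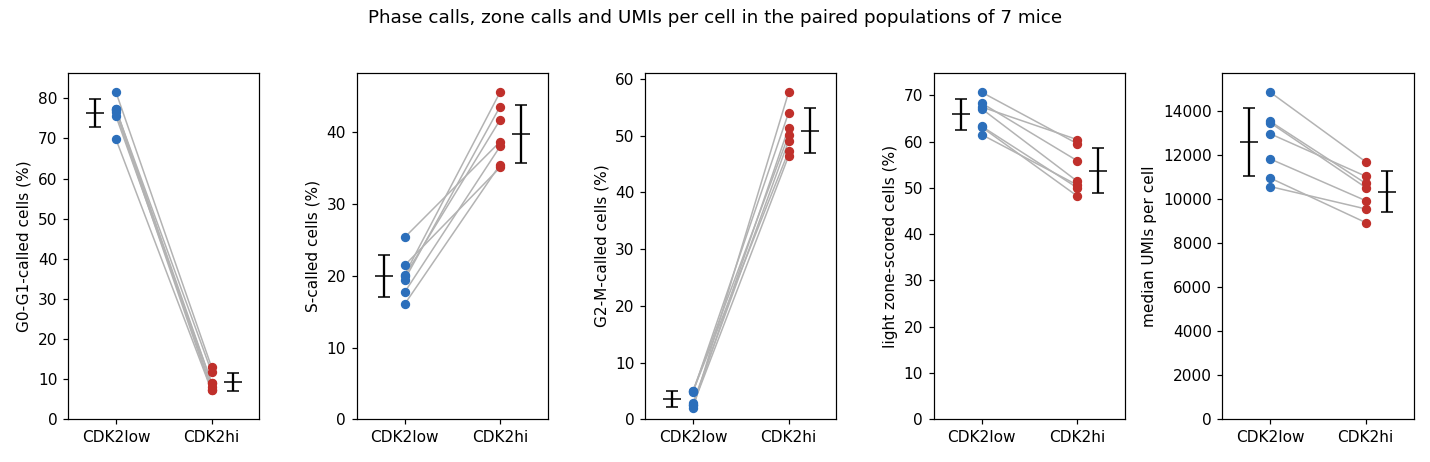
Share of cells (%, vertical axis) called G0-G1, S and G2-M, and scored as LZ, in CDK2hi and CDK2low, with 1 point per mouse, a line joining the populations of a mouse, and the mean with its SD. G0-G1 lies at 69.8% to 81.5% in CDK2low and at 7.21% to 13.1% in CDK2hi, and the lines of all 7 mice run the same way in each panel.

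Cells scored as light zone were found in both classes. A cell was scored as LZ where its score for an LZ list exceeded that for a DZ list. This gave 65.9% ± 3.32 LZ cells in CDK2low and 53.7% ± 4.87 in CDK2hi, 12.2 percentage points more in CDK2low (7 of 7 mice, exact two-sided sign-flip p = 0.0156). Thinning left out cells under 5264 UMIs, and the scores were made anew. The shares were then 47.3% in CDK2low and 35.0% in CDK2hi, a difference of 12.3 points. The level of the share thus depended on the processing. The score is continuous, and 9.26% of CDK2hi and 7.73% of CDK2low cells lay within 0.05 of the cut.

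Across the genome, the classes differed in most genes. Of 21848 genes in the matrix, 10125 passed the filter on low counts. A gene could pass it through its level in either class alone. At an adjusted p under 0.05 in edgeR's quasi-likelihood test with the mouse as a block, 3694 genes (36.5%) were higher in CDK2hi and 3912 (38.6%) in CDK2low. The counts of gene lists over all cells below are to be read against these shares. Of the 7606 genes called, 6157 had the same direction in all 7 mice. With a fold change of at least 2 as well, 573 genes (5.66%) were higher in CDK2hi and 235 (2.32%) in CDK2low. The log2 fold changes, CDK2hi minus CDK2low throughout, ran from −2.38 to 4.84 with a median of −0.03. The differences towards CDK2hi thus reached further than those towards CDK2low.

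**Figure D2:**
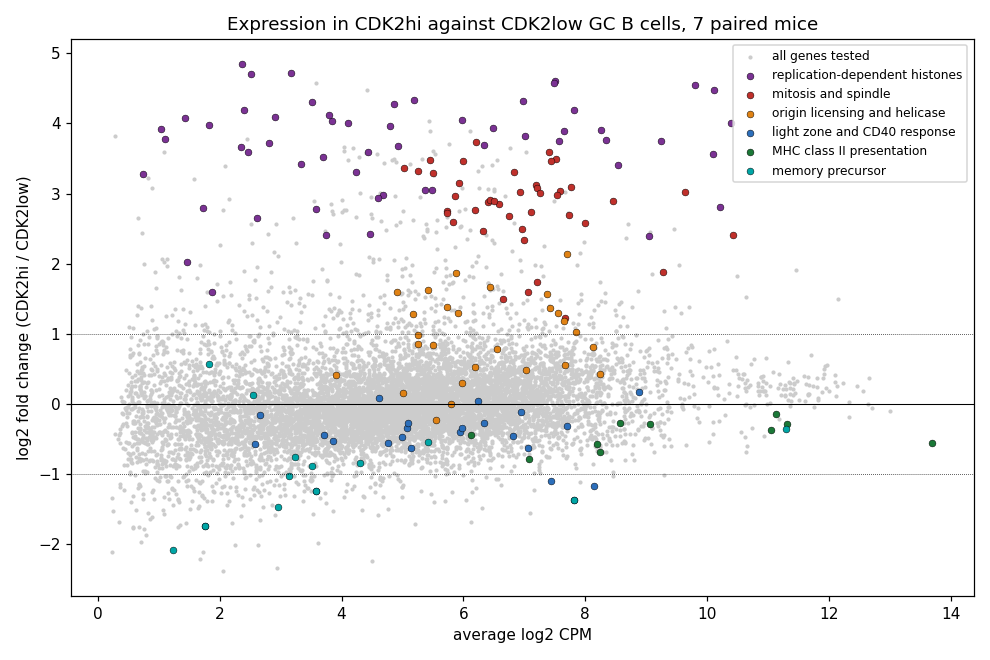
Log2 fold change (CDK2hi minus CDK2low, vertical axis) against mean expression (log2 CPM, horizontal axis) of the 10125 genes tested, with the members of 6 gene lists coloured and dotted lines at a fold change of 2. Histones and mitotic genes lie above the upper line, and the 573 genes at least 2-fold higher in CDK2hi reach 4.84 and the 235 at least 2-fold higher in CDK2low reach −2.38.

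The direction of small differences depended on the scale. CPM gives a gene's share of the RNA captured, and CDK2low cells yielded more UMIs. When the number of cells took the place of the library size, giving UMIs per cell, the median of all genes moved from −0.03 to −0.52, with 1137 genes higher in CDK2hi and 7894 in CDK2low. Counts of gene lists per cell below are to be read against these numbers, out of 10125 genes. On that scale 12.6% of calls were towards CDK2hi, against 48.6% as CPM. Of the 3694 genes higher in CDK2hi as CPM, 1137 were called the same way per cell and 1634 the other way. The genes at least 2-fold different as CPM kept their call, all 573 and all 235 of them, and 332 of the 573 were still at least 2-fold higher in CDK2hi. The change of scale moves all genes by a similar amount. Keeping the call thus follows largely from the large difference as CPM.

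The cyclins of the dividing cycle were all higher in CDK2hi. All 15 tested genes of cyclins E, A and B and their kinases were higher in CDK2hi, 11 of them at least 2-fold, with a median log2 fold change of 1.97 (all genes tested, −0.03). Ccne1, the cyclin E that first activates CDK2, lies at chr7:37797404-37808264 on the minus strand (GRCm39). It was at 48.1 CPM in the lowest, 52.3 CPM in the median and 59.2 CPM in the highest mouse in CDK2hi, and at 13.5, 18.2 and 24.4 CPM in CDK2low, an order that is kept for all genes below, with CDK2hi first. This was a log2 fold change of 1.496 ± 0.06 (SE, adjusted p = 6.98e-21). Ccna2, cyclin A of S and G2 phase, was at 224, 232 and 243 CPM against 12.9, 20.02 and 23.8 CPM (3.59 ± 0.08, adjusted p = 1.49e-11). For neither gene did the mice of the classes overlap. The share of all genes without overlap was not counted, so that the lack of overlap is description only, here and below.

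The mitotic pair differed too. Ccnb1, cyclin B, was at 91.3, 102 and 109.6 CPM in CDK2hi and at 9.31, 15.9 and 17.98 CPM in CDK2low (2.75 ± 0.13, adjusted p = 6.33e-07). Its kinase Cdk1 was at 171, 191 and 211 CPM against 11.6, 16.4 and 18.2 CPM (3.65 ± 0.05, adjusted p = 3.16e-25). Cdk2 itself differed less. It was at 75.6, 79.6 and 81.9 CPM in CDK2hi and at 51.3, 53.7 and 57.7 CPM in CDK2low (0.54 ± 0.04, adjusted p = 2.68e-15), so that as CPM the transcript of the kinase that defined the classes differed by 1.45-fold. It did not pass the threshold per cell (0.053, adjusted p = 0.27). Nor did it among G0-G1 (0.169, adjusted p = 0.232) or S cells (0.094, adjusted p = 0.136), while it passed among G2-M cells (0.585, adjusted p = 0.00381).

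The G1 part of the machinery went both ways. Of 4 tested genes of cyclin D and its partners, 2 were higher in CDK2hi and 2 in CDK2low, with log2 fold changes from −1.36 to 0.74 around a median of 0.05. Per cell, 1 was higher in CDK2hi and 3 in CDK2low, with a median of −0.435. Ccnd3, the main cyclin D of GC B cells, was at 301, 311 and 353 CPM in CDK2hi and at 321, 356 and 393 CPM in CDK2low (−0.15 ± 0.03, adjusted p = 2.28e-06, lower in CDK2hi in 7 of 7 mice with overlapping ranges). Ccnd2 was low, with a median of 3.35 CPM in CDK2hi and 5.75 CPM in CDK2low (−1.36 ± 0.37, adjusted p = 0.0129). Without mouse M1 its value was −1.11 and no longer past the threshold (adjusted p = 0.0663). Ccnd1 did not pass the filter. Of the partner kinases, Cdk4 was at 189, 220.3 and 232 CPM against 111, 132 and 139 CPM (0.74 ± 0.03, adjusted p = 6.47e-23) and Cdk6 differed by 0.25 ± 0.05 (adjusted p = 4.35e-05) with overlapping mice. The call of Cdk6 was lost in cells thinned to equal UMIs (0.049, adjusted p = 0.550) and with library size alone (0.053, adjusted p = 0.339).

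As CPM, no inhibitor of the kinases was higher in CDK2low. Of 5 tested, 4 were higher in CDK2hi and none in CDK2low, and the median was 1.39. Among G0-G1 cells none of the 3 tested was called (median 0.026). Among S cells 3 of 4 and among G2-M cells 2 of 4 were higher in CDK2hi, where 24.8% and 14.5% of all genes were. Cdkn2c, which encodes the CDK4 and CDK6 inhibitor p18, was at 58.4, 61.4 and 72.2 CPM in CDK2hi and at 18.6, 21.96 and 25.4 CPM in CDK2low (1.54 ± 0.05, adjusted p = 7.34e-25). Cdkn2d, for p19, was at 113, 125 and 136 CPM against 39.0, 48.4 and 54.6 CPM (1.39 ± 0.04, adjusted p = 2.58e-26). Cdkn1b, which encodes the CDK2 inhibitor p27, was at 10.5, 14.2 and 15.99 CPM against 9.11, 12.97 and 18.2 CPM, a log2 fold change of −0.03 ± 0.08 (adjusted p = 0.750). On the per-cell scale it was lower in CDK2hi, by a log2 fold change of −0.52. Cdkn1a, for p21, did not exceed 2.21 CPM in any sum and was not tested. p27 is governed largely by the breakdown of the protein, which these data do not measure.

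Among the factors that act on E2F promoters, 17 of 19 tested genes were higher in CDK2hi and 1 in CDK2low (median 0.56). Per cell, 9 were higher in CDK2hi and 7 in CDK2low (median 0.065). Foxm1, which drives mitotic genes, was at 45.1, 51.7 and 57.7 CPM in CDK2hi and at 2.81, 4.51 and 7.42 CPM in CDK2low (3.45 ± 0.08, adjusted p = 1.78e-23). E2f8, a repressor that acts late in S phase, was at 102, 107 and 116 CPM against 13.5, 15.4 and 21.7 CPM (2.78 ± 0.05, adjusted p = 4.44e-30). The mice of the classes did not overlap for either. Rbl2, which encodes the pocket protein p130 of resting cells, did not pass the threshold as TMM-scaled CPM, at 35.1, 39.0 and 42.4 CPM against 35.1, 36.2 and 42.1 CPM (0.04 ± 0.05, adjusted p = 0.490). It passed towards CDK2low with library size alone (−0.162, adjusted p = 0.00155) and per cell (−0.455, adjusted p = 3.9e-12). Among S cells it also did (−0.248, adjusted p = 0.00809), but not among G0-G1 or G2-M cells.

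Genes that license and fire replication origins were higher in CDK2hi. Of 27 tested, 25 were higher in CDK2hi, 13 of them at least 2-fold, and 1 was higher in CDK2low (median 0.98). Mcm5, a subunit of the replicative helicase, was at 280.1, 307 and 320 CPM in CDK2hi and at 128, 152 and 166 CPM in CDK2low (1.02 ± 0.03, adjusted p = 1.63e-23). Clspn, the checkpoint adaptor Claspin, was at 317, 335 and 344 CPM against 57.6, 71.1 and 105 CPM (2.13 ± 0.10, adjusted p = 1.35e-06). Cdc45, which joins the helicase when origins fire, differed by 1.86 ± 0.05 (adjusted p = 1.56e-25). The difference in Mcm5, the early component, was thus smaller than that in Clspn and Cdc45, although the genes were not tested against each other.

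The replication fork followed. All 23 genes of the fork and its sliding clamp were higher in CDK2hi (median 1.12, 14 at least 2-fold). Rfc4, a subunit of the clamp loader, was at 177, 189 and 201 CPM against 39.3, 48.8 and 67.3 CPM (1.90 ± 0.08, adjusted p = 5.31e-08). Lig1, the ligase that seals Okazaki fragments, differed by 1.44 ± 0.04 (adjusted p = 1.94e-19). All 17 genes of nucleotide supply were higher too (median 0.97). Among these, Rrm2, the subunit of ribonucleotide reductase that sets the supply in S phase, was at 326, 359 and 389 CPM in CDK2hi and at 39.6, 54.5 and 76.7 CPM in CDK2low (2.72 ± 0.13, adjusted p = 9.84e-07), and Tyms, thymidylate synthase, differed by 2.48 ± 0.06 (adjusted p = 9.71e-22).

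Chromatin genes were mixed. Of 19 tested genes for copying chromatin, 10 were higher in CDK2hi, 5 of these at least 2-fold, and 5 were higher in CDK2low as CPM (median 0.41), and 9 were higher in each class per cell (median −0.07). Over all genes, 36.5% were called towards CDK2hi and 38.6% towards CDK2low as CPM. Asf1b, a histone chaperone of the fork, differed by 1.98 ± 0.05 (adjusted p = 9.01e-18). Ezh2, the methyltransferase of Polycomb that GC B cells require, was at 446, 474 and 509 CPM in CDK2hi and at 147, 156 and 192 CPM in CDK2low (1.58 ± 0.03, adjusted p = 1.42e-28).

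The replication-dependent histones had the highest median of all the lists. Of 66 listed, 56 passed the filter, all 56 were higher in CDK2hi and at least 2-fold so, and their log2 fold changes ran from 1.59 to 4.84 around a median of 3.77. A histone could pass the filter on its level in CDK2hi alone, so that the count of 56 may depend in part on the filter. H2ac24 lies at chr13:22017196-22017677 on the minus strand (GRCm39). It was at 295, 339 and 380.4 CPM in CDK2hi and at 10.5, 13.9 and 17.4 CPM in CDK2low (4.61 ± 0.05, adjusted p = 1.10e-28). H2ac8 was at 1934, 2078 and 2304 CPM against 79.1, 91.0 and 115 CPM (4.48 ± 0.08, adjusted p = 2.50e-09). H3c3 at chr13:23928956-23929585 was at 305, 338 and 369.8 CPM against 11.7, 15.1 and 17.1 CPM (4.58 ± 0.04, adjusted p = 1.05e-40).

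Of the 10 genes of mean log2 CPM above 4 with the largest difference towards CDK2hi, 9 were histones. The others of the 9 were H2ac4 at 4.54 ± 0.07, H2bc15 at 4.34 ± 0.07, H2bc14 at 4.31 ± 0.07, H2bc9 at 4.28 ± 0.08, H2bc18 at 4.19 ± 0.04 and H2bc3 at 4.04 ± 0.06. The tenth was Ankle1, an endonuclease that cuts DNA bridges in dividing cells, at 32.0, 40.4 and 43.7 CPM in CDK2hi and 1.17, 1.82 and 2.94 CPM in CDK2low (4.47 ± 0.10, adjusted p = 4.46e-29). Limits hold for these values. Copies of a histone class are nearly identical in sequence, so that reads may be split among them, and H3c3 overlaps H2bc3 on the opposite strand. These mRNAs mostly end in a stem-loop without poly(A), which the capture needs, so that their levels are those of the captured part.

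Genes of mitosis and the spindle were higher in CDK2hi without exception. All 42 tested were at least 2-fold higher, with a median of 2.90 and a range from 1.22 to 3.74. Plk1, a kinase of mitotic entry, was at 123, 129 and 143 CPM in CDK2hi and at 4.05, 10.6 and 12.5 CPM in CDK2low (3.74 ± 0.13, adjusted p = 8.99e-08). Cenpf, a kinetochore protein, was at 269, 296 and 367 CPM against 15.8, 25.4 and 30.9 CPM (3.60 ± 0.12, adjusted p = 1.71e-07). Mki67, which encodes Ki-67 of dividing cells, was at 2207, 2300 and 2442 CPM against 392, 419.6 and 531 CPM (2.41 ± 0.04, adjusted p = 2.30e-14).

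The promoters of these groups can be read for the motifs that their regulators bind. The MuvB complex binds the cell cycle homology region (CHR, here TTTGAA), E2F binds TTTGGCGC or TTTCCCGC, and NF-Y binds CCAAT. Stretches are shown for Cdk1 and Mki67 (mitosis), H3c3 (histones) and Mcm5 (licensing), all higher in CDK2hi, and for Mxd4, higher in CDK2low, each cut to where these letters lie closest. The sequences are those of RefSeq on GRCm38.p6, on the strand of the gene and 5′ to 3′. Capitals mark each of the motifs, on either strand, so that some appear as their complement (TTCAAA for the CHR, ATTGG for CCAAT). Cdk1 is chr10:69352913-69353002 (minus strand), Mki67 is chr7:135716465-135716574 (minus), H3c3 is chr13:23745562-23745666 (minus), Mcm5 is chr8:75109354-75109498 (plus) and Mxd4 is chr5:34187751-34187820 (minus).
Cdk1: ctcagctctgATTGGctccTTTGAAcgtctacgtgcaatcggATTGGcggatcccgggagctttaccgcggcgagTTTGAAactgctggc
Mki67: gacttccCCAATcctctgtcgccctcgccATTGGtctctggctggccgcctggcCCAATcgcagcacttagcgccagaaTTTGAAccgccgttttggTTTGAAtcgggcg
H3c3: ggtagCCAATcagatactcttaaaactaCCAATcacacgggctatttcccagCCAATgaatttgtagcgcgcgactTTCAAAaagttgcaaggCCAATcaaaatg
Mcm5: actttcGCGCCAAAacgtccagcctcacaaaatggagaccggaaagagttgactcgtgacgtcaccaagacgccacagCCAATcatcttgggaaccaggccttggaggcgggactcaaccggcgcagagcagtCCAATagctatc
Mxd4: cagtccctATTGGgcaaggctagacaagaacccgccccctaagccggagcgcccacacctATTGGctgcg

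The motifs were counted over windows of 250 bases before to 50 after each start. A promoter was found for 461 of the 573 genes at least 2-fold higher in CDK2hi, for 174 of the 235 at least 2-fold higher in CDK2low, and for 8154 of the 10125 genes tested. The CHR letters were in 32.5% of the first set, 11.5% of the second, 12.3% of all tested genes and 18.1% of all 27025 promoters. CCAAT was in 63.1%, 32.8%, 40.3% and 37.9% of them, and an E2F form in 9.76%, 0.575%, 3.46% and 1.63%. CHR and CCAAT stood together in 24.7%, 4.02%, 5.49% and 7.12%. By list, the CHR letters were in 77.8% of the 36 mitosis promoters, 47.9% of the 48 histone promoters, 23.8% of the 21 licensing promoters and 5% of the 20 fork promoters, while an E2F form was in 11.1%, 2.08%, 38.1% and 25%. These are letter matches and were not tested. A CHR match and a CCAAT match can share a base at their ends, and such a pair was counted under both.

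Transcripts higher in CDK2low were mixed in kind. As TMM-scaled CPM, fewer of them than of those higher in CDK2hi differed at least 2-fold, but with library size alone the numbers were 451 in CDK2low and 442 in CDK2hi, and per cell they were 1311 and 332. The largest difference, among genes of mean log2 CPM above 4, was Rapgef4, a cAMP-responsive exchange factor for Rap at chr2:71811328-72089838 on the plus strand (GRCm39). It was at 4.29, 8.08 and 12.3 CPM in CDK2hi and at 27.1, 35.5 and 57.7 CPM in CDK2low (−2.24 ± 0.13, adjusted p = 1.20e-07). Mxd4, a partner of Max that competes with Myc, was at 39.1, 41.3 and 46.7 CPM against 104, 123 and 133 CPM (−1.49 ± 0.04, adjusted p = 1.92e-27). Il4i1, an amino acid oxidase of activated B cells, was at 19.8, 34.9 and 43.5 CPM against 71.6, 110.3 and 135 CPM (−1.69 ± 0.04, adjusted p = 2.23e-24).

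The 10 leading genes were picked for large differences with the same direction in all mice. That the classes did not overlap for any of them follows largely from this choice. The remaining 7 were Gimap3 at −1.72 ± 0.05, a GTPase of lymphocyte survival, Trim7 at −1.59 ± 0.06, Lrrk2 at −1.56 ± 0.04, a large kinase with a GTPase domain, Il10ra at −1.52 ± 0.07, the receptor chain for interleukin-10, Arhgef3 at −1.499 ± 0.06, an exchange factor for small GTPases, Slfn2 at −1.39 ± 0.06, a Schlafen protein linked to lymphocyte quiescence, and Klhl14 at −1.39 ± 0.04, a B cell adaptor of ubiquitin ligases.

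Genes tied to quiescence were mostly higher in CDK2low. Of 18 tested genes around Foxo1 and Klf2, 11 were higher in CDK2low and 1 in CDK2hi (median −0.32 as CPM and −0.81 per cell). Over all genes, 38.6% and 36.5% were called these ways as CPM. Foxo1, a factor that sustains resting lymphocytes and the DZ programme, was at 161, 179 and 199.5 CPM in CDK2hi and at 239, 262 and 300.1 CPM in CDK2low (−0.56 ± 0.03, adjusted p = 1.47e-19). Btg1, an antiproliferative gene, was at 175, 191 and 223 CPM against 278, 301 and 316 CPM (−0.62 ± 0.03, adjusted p = 1.85e-19). Foxo3, a relative of Foxo1, was at 5.22, 5.94 and 8.67 CPM against 9.86, 11.6 and 13.9 CPM (−0.91 ± 0.09, adjusted p = 1.06e-10). None of these overlapped between the classes, while the share of all genes without overlap was not counted.

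Klf2, a factor of lymphocyte quiescence, was less even. It was at 10.2, 13.3 and 16.9 CPM in CDK2hi and at 15.8, 27.4 and 47.3 CPM in CDK2low (−0.84 ± 0.23, adjusted p = 0.0127), and it was lower in CDK2hi in 6 of 7 mice. The highest CDK2low value was that of mouse M6, in which the CD3 genes stood apart, and without this mouse the value was −0.70 (adjusted p = 0.00156). Within the called phases Klf2 did not pass the threshold. It was at 0.098 among G0-G1 (adjusted p = 0.86), −0.149 among S (0.397) and −0.263 among G2-M cells (0.481). Among DZ-scored cells it passed (−0.692, adjusted p = 1.83e-04). The gene of the list that was higher in CDK2hi was Ccng2, a cyclin linked to arrest that Foxo factors are known to induce, at 44.9, 49.0 and 51.7 CPM against 20.5, 21.7 and 27.6 CPM (1.05 ± 0.05, adjusted p = 2.91e-19).

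**Figure D3:**
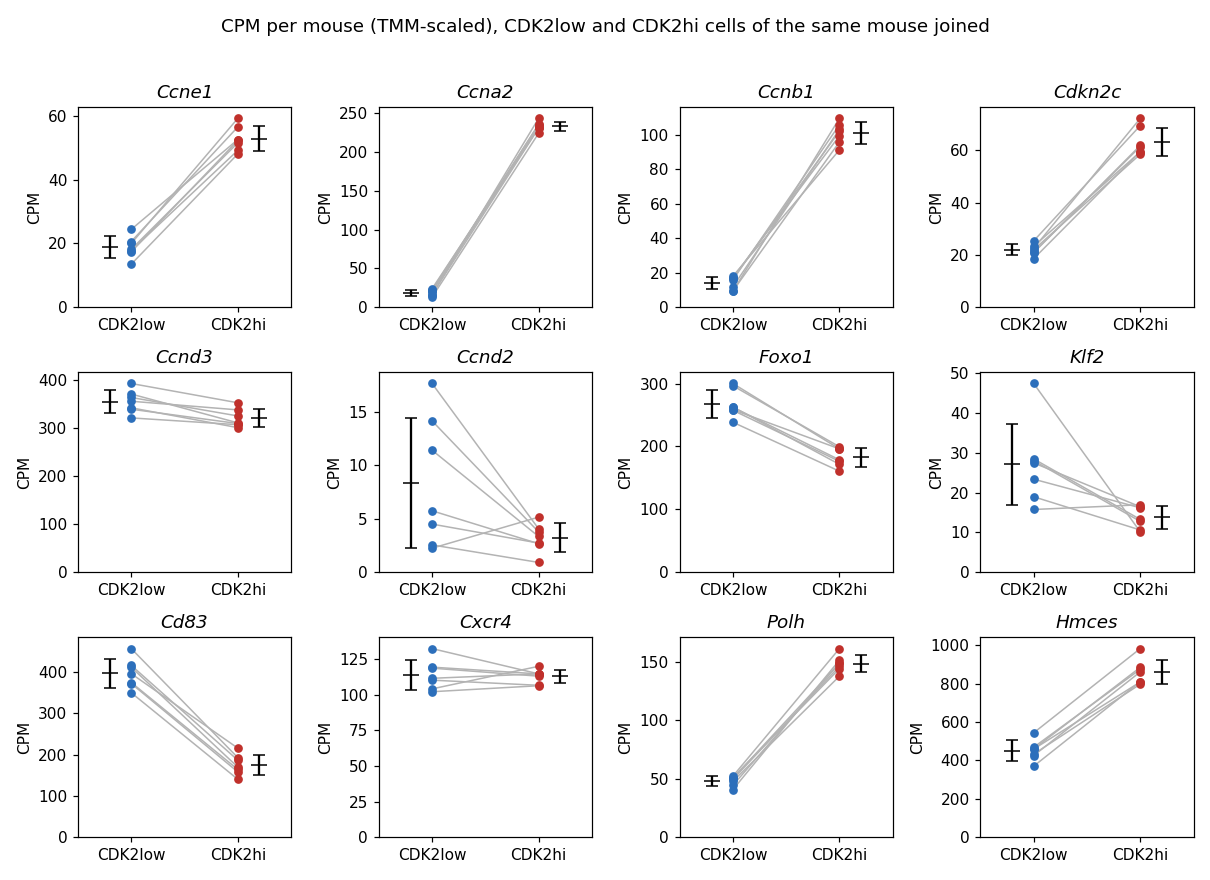
Expression per mouse (TMM-scaled CPM, vertical axis from 0) of 12 genes in CDK2low and CDK2hi, with 1 point per mouse, a line joining the populations of a mouse, and the mean with its SD beside the points. Ccna2, for example, lies at 224 to 243 CPM in CDK2hi and 12.9 to 23.8 CPM in CDK2low, whereas the mice overlap for Cxcr4.

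The LZ programme was higher in CDK2low. Of 24 tested LZ and CD40 response genes, 18 were higher in CDK2low, 5 of them at least 2-fold, and 1 in CDK2hi (median −0.45). The same list made the LZ score, so that this count and the share of LZ cells are not independent. Among G0-G1 cells 8 of 24 were higher in CDK2low and 2 in CDK2hi (median −0.208). There 19.7% and 19.3% of all genes were called. Cd83, an LZ marker, was at 140.3, 169.8 and 216 CPM in CDK2hi and at 349, 395 and 456 CPM in CDK2low (−1.17 ± 0.05, adjusted p = 1.30e-09). Cd86, a costimulatory ligand for T cells, was at 96.7, 109.7 and 129 CPM against 197, 244 and 281 CPM (−1.10 ± 0.03, adjusted p = 1.27e-26). Fcer2a, the IgE receptor CD23, was at 83.4, 126 and 158 CPM against 265, 326 and 386 CPM (−1.37 ± 0.07, adjusted p = 1.42e-06). Ly75, the DEC-205 receptor that takes up the antibody given, overlapped between the classes, at 45.2, 56.5 and 61.8 CPM against 55.0, 78.5 and 92.9 CPM (−0.44 ± 0.05, adjusted p = 2.50e-07).

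Myc, which T cell help induces in selected cells, did not pass the threshold over all cells as CPM. It was at 18.8, 25.95 and 30.4 CPM in CDK2hi and at 13.9, 20.7 and 37.2 CPM in CDK2low (0.08 ± 0.13, adjusted p = 0.587), higher in CDK2hi in 4 of 7 mice. This depended on the scale and on the cells taken. Its value was 0.31 (adjusted p = 0.00415) in cells thinned to equal UMIs and −0.41 (adjusted p = 0.00185) per cell. Among G0-G1 cells it was at 33.0 ± 21.1 CPM (SD, n = 7) in CDK2hi and 23.96 ± 9.27 CPM in CDK2low (0.685 ± 0.145, adjusted p = 9.32e-05, higher in CDK2hi in 5 of 7 mice). Of 14 immediate-early genes, 8 were higher in CDK2low and 3 in CDK2hi (median −0.38), where 38.6% and 36.5% of all genes were called. Zfp36, which shortens the life of cytokine mRNAs, was at 87.0, 94.9 and 113 CPM against 133, 147 and 167 CPM (−0.62 ± 0.03, adjusted p = 1.40e-18), and Egr1, a target of receptor signals, differed by −0.54 ± 0.15 (adjusted p = 0.0121) with overlapping mice.

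Antigen presentation followed the LZ genes. All 10 tested genes of MHC class II presentation were higher in CDK2low (median −0.41, range −0.79 to −0.15). Ciita, the master activator of these genes, was at 199, 234 and 270 CPM in CDK2hi and at 327, 367 and 427 CPM in CDK2low (−0.68 ± 0.02, adjusted p = 1.09e-22). H2-Oa, a chain of the DO molecule that limits peptide loading, was at 86.9, 96.6 and 117 CPM against 159, 172 and 192 CPM (−0.79 ± 0.04, adjusted p = 2.98e-17).

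Of 5 tested DZ genes, 3 were higher in CDK2hi and 1 in CDK2low as CPM (median 0.53), where 36.5% and 38.6% of all genes were called. Per cell, 2 were higher in each class (median 0.03), and among G2-M cells 1 was higher in CDK2hi and 3 in CDK2low (median −0.36). Of all genes tested among G2-M cells, 14.5% and 10.2% were called these ways. Cxcr4, the receptor that holds cells in the DZ, was at 106, 115 and 119.8 CPM in CDK2hi and at 102, 111 and 132 CPM in CDK2low (−0.01 ± 0.03, adjusted p = 0.790), and per cell it differed by −0.50 and passed the threshold. Foxp1, a factor that GC B cells lower on entry, was at 217, 241 and 254 CPM against 411, 478 and 525 CPM (−0.97 ± 0.03, adjusted p = 2.53e-27). Another member, Polh, is described with the repair genes.

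Genes of memory precursors and of naive B cells were mostly higher in CDK2low. Of 13 memory precursor genes, 11 were higher in CDK2low, 6 of them at least 2-fold, and 1 in CDK2hi (median −0.88). Of 7 naive B cell genes, 6 were higher in CDK2low and none in CDK2hi (median −1.03). Both lists share Fcer2a and Gpr183 with the LZ list, and the memory list also shares Ccr6 with it, so that the lists are not independent of each other. Gpr183 is the oxysterol receptor that draws B cells out of follicle centres. Gpr183 was at 5.32, 7.80 and 8.59 CPM in CDK2hi and at 11.1, 15.6 and 41.0 CPM in CDK2low (−1.24 ± 0.17, adjusted p = 1.04e-04). Its highest value was again that of mouse M6, without which it differed by −1.09 (adjusted p = 3.37e-11).

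B cell identity genes were shifted as well. Of 18 tested, 16 were higher in CDK2low and 2 in CDK2hi (median −0.33). Ebf1, a founding factor of the B lineage, was at 579, 632 and 747 CPM in CDK2hi and at 851, 985 and 1123 CPM in CDK2low (−0.59 ± 0.02, adjusted p = 8.25e-23), with no overlap between the classes. Of 12 genes of the Bcl-2 family, 7 were higher in CDK2low and 1 in CDK2hi (median −0.28), where 38.6% and 36.5% of all genes were called. Among G0-G1 cells 2 of 10 were higher in CDK2low and 1 in CDK2hi, where 19.7% and 19.3% of all genes were called. The pro-death Bmf was at 4.84, 6.50 and 7.24 CPM against 11.9, 15.3 and 18.8 CPM (−1.24 ± 0.09, adjusted p = 6.81e-15), and Bbc3, which encodes Puma, differed by −0.67 ± 0.10 (adjusted p = 1.27e-07). Of 6 plasma cell genes, 4 were higher in CDK2hi and 2 in CDK2low as CPM (median 0.19), and 1 and 5 per cell (median −0.30), led by Derl3 at 0.86 ± 0.09 (adjusted p = 1.11e-10) and Sec11c at 0.36 ± 0.03 (adjusted p = 1.53e-13), both of the secretory pathway.

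The study asked whether SHM is tied to CDK2 activity, so the transcripts of its effectors were read next. Of 24 tested, 20 were higher in CDK2hi, 5 of them at least 2-fold, and 2 in CDK2low (median 0.28 as CPM). Per cell, 8 were higher in CDK2hi and 14 in CDK2low (median −0.205), where 1137 and 7894 of all 10125 genes were called (median −0.52). Among G0-G1 cells 5 of 21 were higher in CDK2hi and 2 in CDK2low (median 0.09), where 19.3% and 19.7% of all genes were called. Without the 1 gene tested there that the phase calls read, 5 and 2 of 20 were (median 0.089). Ung, the glycosylase that removes the uracil left by deamination, was at 22.5, 25.4 and 31.2 CPM in CDK2hi and at 14.96, 18.8 and 23.3 CPM in CDK2low (0.44 ± 0.06, adjusted p = 1.29e-07), higher in CDK2hi in 7 of 7 mice with overlapping ranges. Per cell Ung did not pass the threshold (−0.048, adjusted p = 0.488). Among S cells, which were called in part by Ung itself, it was called the other way (−0.161 ± 0.068, adjusted p = 0.0398). Fam72a, which antagonizes Ung, was at 16.8, 18.6 and 20.2 CPM against 1.79, 2.02 and 3.65 CPM (2.90 ± 0.11, adjusted p = 2.49e-22). The antagonist thus differed more than its target, although the genes were not tested against each other. Within phases, Fam72a differed by 1.16 among S and 1.42 among G2-M cells and was not tested among G0-G1 cells. Hmces, which shields abasic sites, was at 797, 860.5 and 982 CPM against 370.4, 459.5 and 544 CPM (0.93 ± 0.03, adjusted p = 4.21e-17).

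Downstream of the uracil, Msh6 of mismatch repair was at 102, 108 and 115 CPM in CDK2hi and at 69.7, 76.0 and 87.8 CPM in CDK2low (0.48 ± 0.04, adjusted p = 1.10e-11). It did not pass the threshold per cell (−0.001, adjusted p = 0.977) or among S cells (0.063, adjusted p = 0.293). Among G0-G1 (0.224, adjusted p = 0.0413) and G2-M cells (0.418, adjusted p = 0.014) it passed. Polh, the polymerase that makes most mutations at A and T, was at 138, 149 and 161 CPM against 40.8, 49.6 and 52.3 CPM (1.61 ± 0.04, adjusted p = 9.29e-27). Within phases, Polh differed by 0.277 among G0-G1, 0.799 among S and 0.385 among G2-M cells. Apex1, an abasic endonuclease, and Neil1, a glycosylase of oxidized bases, differed little and overlapped, by 0.26 ± 0.04 (adjusted p = 9.01e-07) and 0.10 ± 0.03 (adjusted p = 3.60e-04). The call of Apex1 was lost with library size alone (0.066, adjusted p = 0.145). Neil1 lost its call after thinning (0.041, adjusted p = 0.229) and turned to −0.092 with library size alone (adjusted p = 0.00114). The related glycosylase Neil3, known to be a gene of S and G2 phase, was at 121, 137 and 157 CPM against 9.24, 12.2 and 18.2 CPM (3.40 ± 0.05, adjusted p = 4.58e-31).

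Of 23 genes of the DNA damage response and homologous recombination, which handles broken forks, 20 were higher in CDK2hi, 15 at least 2-fold, and 1 in CDK2low (median 1.32). Fancd2, a clamp at stalled forks, was at 36.3, 39.9 and 48.1 CPM in CDK2hi and at 3.02, 4.99 and 7.67 CPM in CDK2low (2.97 ± 0.08, adjusted p = 2.59e-25). Rad51ap1, a recombination factor, was at 97.8, 102 and 106 CPM against 14.9, 17.9 and 24.04 CPM (2.54 ± 0.06, adjusted p = 2.32e-18).

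Genes of growth and energy differed by smaller amounts, and their counts depended on the scale. Of 79 nuclear genes of oxidative phosphorylation, 76 were higher in CDK2hi and 1 in CDK2low as CPM (median 0.50), and 25 and 26 per cell (median 0.015). Ndufa5 of complex I was at 130.2, 139.6 and 157 CPM against 66.5, 76.5 and 85.2 CPM (0.87 ± 0.03, adjusted p = 6.15e-22), and Cox7a2 of complex IV differed by 0.84 ± 0.03 (adjusted p = 5.94e-25). Of the 13 mitochondrially encoded genes, 5 were higher in each class as CPM (median −0.003), a share near that of all genes. Per cell none was higher in CDK2hi and 12 in CDK2low (median −0.48), and with library size alone the numbers were 2 and 10. Among them mt-Atp8 differed by 0.48 ± 0.02 and mt-Nd6 by −0.35 ± 0.05. The filter on mitochondrial UMIs bears on this list.

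Of 80 cytosolic ribosomal protein genes, 76 were higher in CDK2hi and 1 in CDK2low as CPM (median 0.27), whereas per cell 5 were higher in CDK2hi and 66 in CDK2low (median −0.21). Rps27l, a p53-responsive member, was at 313, 334 and 372 CPM in CDK2hi and at 175, 217 and 244 CPM in CDK2low (0.70 ± 0.03, adjusted p = 3.17e-20). Of 31 ribosome biogenesis genes, 19 were higher in CDK2hi and 5 in CDK2low as CPM (median 0.17), and 4 and 23 per cell (median −0.31), with Npm1 at 0.75 ± 0.02 (adjusted p = 6.75e-19) and Nop58 at 0.70 ± 0.03 (adjusted p = 1.09e-21). Of 20 cholesterol synthesis genes, 17 were higher in CDK2hi and none in CDK2low as CPM (median 0.37), and 5 and 11 per cell (median −0.12), with Fdps at 0.80 ± 0.03 (adjusted p = 8.59e-23) and Idi1 at 0.72 ± 0.03 (adjusted p = 1.25e-19). Of 19 glycolysis genes, 11 were higher in CDK2hi and 2 in CDK2low as CPM (median 0.18), and 3 and 10 per cell (median −0.30), with Tpi1 at 0.75 ± 0.03 (adjusted p = 4.68e-23) and Pgam1 at 0.67 ± 0.03 (adjusted p = 6.64e-20).

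Read per cell, the medians were 3.28 for histones, 2.41 for mitosis, 1.5 for cyclins E, A and B, 0.62 for the fork and 0.48 for licensing. They were 0.902 for CDK inhibitors, 0.830 for DNA damage and homologous recombination and 0.484 for nucleotide supply. Nearer to or below 0 lay cyclin D and its partners at −0.435, chromatin copying at −0.07 and E2F, pocket proteins and MuvB at 0.065. With the library size alone, without TMM, the medians of ribosome biogenesis, glycolysis and plasma cell genes were −0.02, −0.01 and −0.01. Among named genes Cdk6, Rbl2, Myc, Ung, Msh6, Apex1, Neil1 and Sec11c also changed sign per cell, and Cdk2 was no longer past the threshold. The change of scale moves all genes by a similar amount (median of all genes per cell, −0.52). Lists higher in CDK2low moved with them, MHC class II to −0.89 and LZ genes to −0.94.

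**Figure D4:**
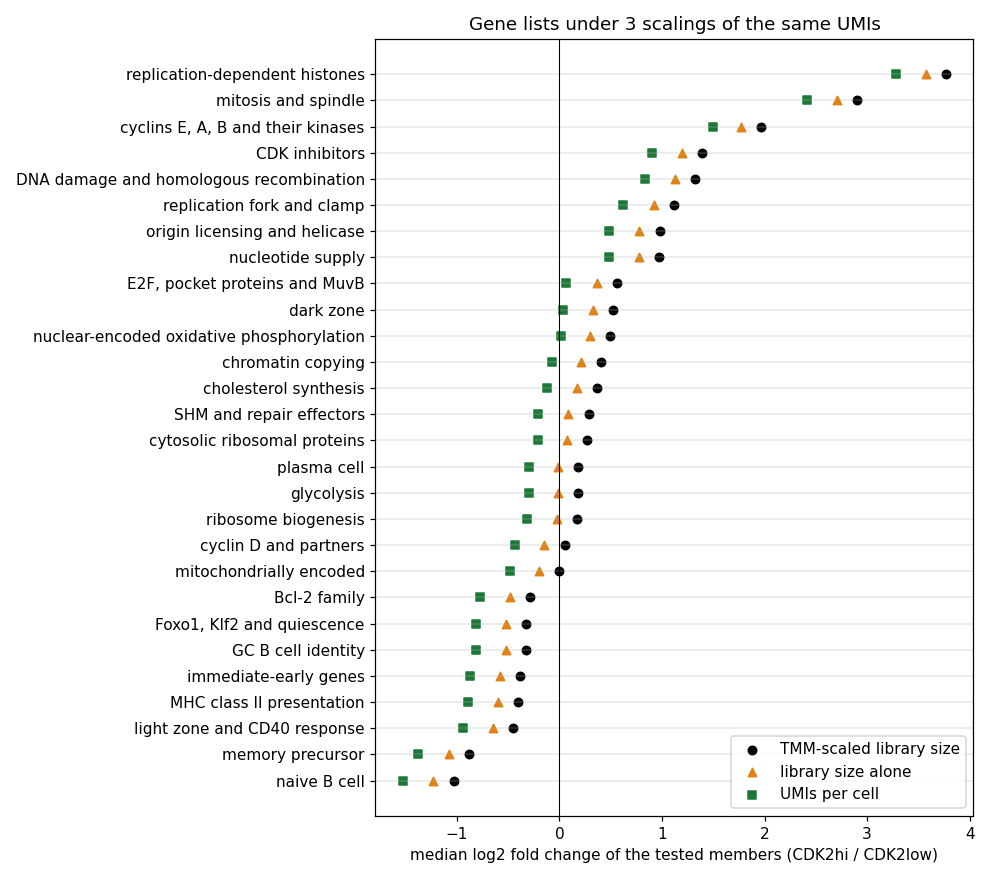
Median log2 fold change (CDK2hi minus CDK2low, horizontal axis) of each gene list as CPM with TMM, by library size alone, and per cell. The medians of all genes are −0.03 and −0.52 as CPM and per cell, and lists near 0, such as ribosomal proteins at 0.27 and −0.21, lie on different sides of 0.

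Because the classes differed in phase, the comparison was repeated within cells of 1 called phase, and within DZ-scored cells, with genes of the phase scores, and for DZ-scored cells also those of the zone scores, left out of the counts over all genes. Counts of a list within a phase are given without the genes of the phase scores as well where it holds any. Among DZ-scored cells 2909 of 9185 genes (31.7%) were higher in CDK2hi and 3070 (33.4%) in CDK2low. Among S cells the numbers were 2261 (24.8%) and 2496 (27.4%) of 9125. Among G0-G1 cells they were 1673 (19.3%) and 1709 (19.7%) of 8655, and among G2-M cells 1277 (14.5%) and 899 (10.2%) of 8809. The G2-M comparison had 5 mice, since 2 had fewer than 10 CDK2low cells, and rested on 12 to 56 CDK2low cells per mouse. Without mouse M1 its calls in both directions fell from 2176 to 1363. The sets differ in the number of cells, so the counts are not compared between phases.

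The UMIs per cell differed within phases too. The median was 7573.5 in CDK2hi and 12043 in CDK2low among G0-G1 cells, 11859 and 17347 among S cells, and 10291 and 15902 among G2-M cells. Their part in the differences within a phase was not tested.

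The genes at least 2-fold different were chosen over all cells, and most of their medians within a phase lay under 2-fold. Some of them differed more within a phase, such as Cdkn2c among G2-M cells. Of the 573 genes at least 2-fold higher in CDK2hi, 447 were tested among S cells, where 415 were called the same way and none the other way, with a median of 0.75. Among G0-G1 cells 160 of 285 were called the same way and 5 the other way (median 0.49), and among G2-M cells 338 of 448 and 3 (median 1.03). Of the 235 genes at least 2-fold higher in CDK2low, 137 of 141 were called the same way among S cells (median −0.86), 105 of 157 among G0-G1 cells (median −0.56) and 26 of 106 among G2-M cells, where 14 were called the other way (median −0.22).

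Within S cells the histones were furthest apart, with all 51 tested at least 2-fold higher in CDK2hi (median 2.53). Here too a histone could pass the filter on its level in CDK2hi alone. All 42 mitotic genes were higher in CDK2hi (median 1.47). Of these mitotic genes, 26 belong to the phase scores that made the call, and all 16 others were higher in CDK2hi (median 1.41). H2bc18 was at 357 ± 19.3 CPM (SD, n = 7) in CDK2hi and at 49.4 ± 8.49 CPM in CDK2low S cells (2.85 ± 0.05, adjusted p = 3.66e-54). Ccne1 was at 81.2 ± 6.04 CPM against 49.9 ± 7.08 CPM (0.71 ± 0.07, adjusted p = 4.37e-15). Licensing genes differed less, with 16 of 27 higher in CDK2hi and 4 in CDK2low (median 0.27). Without the 10 score genes among them, 8 of 17 were higher in CDK2hi and 3 in CDK2low (median −0.01). Of the 19 genes of E2F, pocket proteins and MuvB, 9 were higher in CDK2hi and 4 in CDK2low, and without the 1 score gene 8 and 4 of 18 (median 0.135).

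Within G0-G1 cells, 11 of 18 histones and 23 of 34 mitotic genes were higher in CDK2hi, against 1 of each in CDK2low (medians 0.62 and 0.89). Of the mitotic genes tested there, 20 are genes of the phase scores, and of the 14 others 9 were higher in CDK2hi and none in CDK2low (median 0.58). Of 15 genes of E2F, pocket proteins and MuvB, 2 were higher in CDK2hi and 1 in CDK2low (median −0.06). Ccna2 was at 19.8 ± 8.44 CPM in CDK2hi and 3.71 ± 1.39 CPM in CDK2low G0-G1 cells (2.36 ± 0.23, adjusted p = 1.61e-15). Among genes outside the scores that reached a mean log2 CPM over 4 and had 1 direction throughout the mice, the 5 largest differences were those of Cdkn3, a phosphatase of Cdk1 and Cdk2, at 59.0 ± 10.7 CPM against 16.1 ± 2.70 CPM (1.79 ± 0.13, adjusted p = 2.91e-23), Cenpw, a kinetochore protein, at 1.71 ± 0.13, Pclaf, a partner of the clamp PCNA, at 1.65 ± 0.09, Hmgn2-ps, a retrogene copy of Hmgn2 whose reads may be shared with it, at 1.59 ± 0.10, and Gclm, a subunit of the enzyme that starts glutathione synthesis, at 369.5 ± 48.4 CPM against 142 ± 16.9 CPM (1.36 ± 0.05, adjusted p = 1.04e-42). Gclm was called in all 3 phases, with 1.13 ± 0.04 among S and 0.75 ± 0.08 among G2-M cells. Towards CDK2low the largest under the same limits were Lifr, the receptor of leukaemia inhibitory factor, at −1.54 ± 0.21, Leng8 at −1.18 ± 0.13, Cd72, an inhibitory coreceptor, at −1.08 ± 0.10, Lrrk2 at −1.06 ± 0.07 and Camk1d at −1.02. In these cells 76 of 80 ribosomal protein genes (median 0.33) and 74 of 77 genes of oxidative phosphorylation (median 0.51) were higher in CDK2hi as CPM. Of all genes tested there, 19.3% were. Over all cells both counts depended on the scale, and no comparison within a phase was made per cell.

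**Figure D5:**
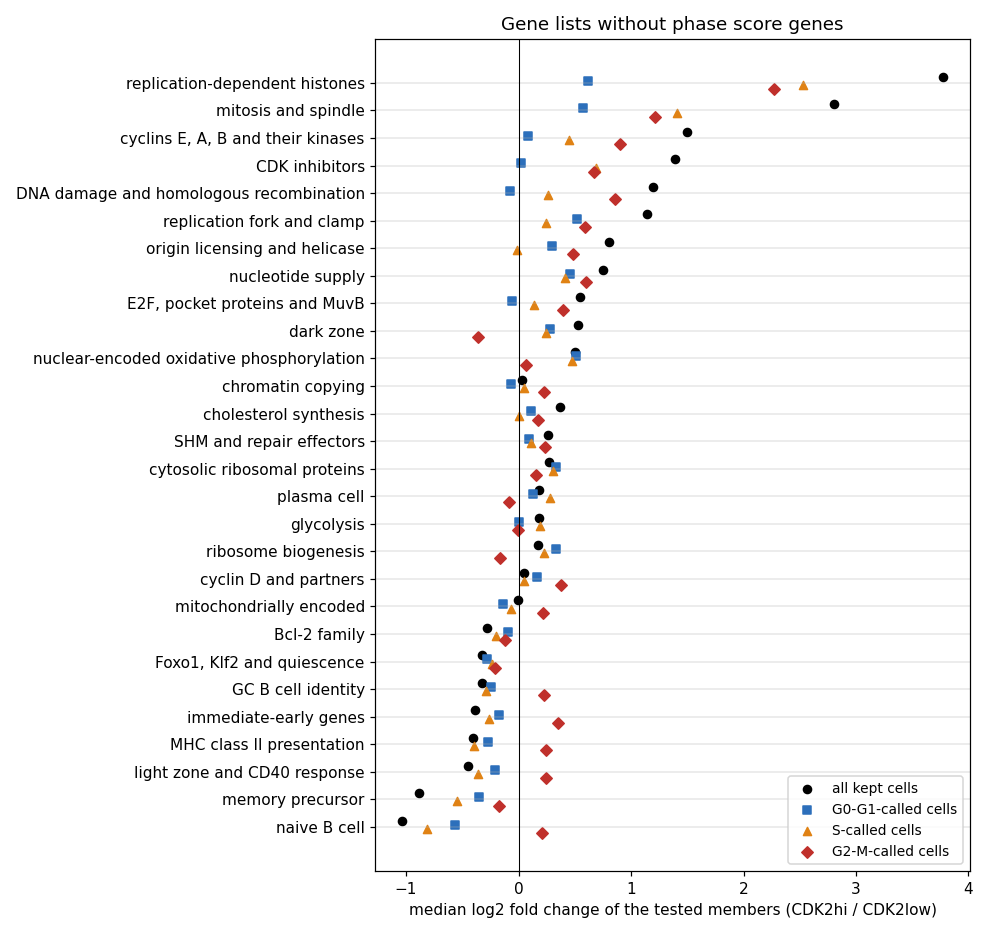
Median log2 fold change (CDK2hi minus CDK2low) of the tested members of each gene list, as CPM and without genes of the phase scores, among all cells and among cells called G0-G1, S and G2-M. Histones have a median of 3.77 among all cells, 2.53 among S cells and 0.62 among G0-G1 cells, and the LZ list lies at −0.36 among S cells and at 0.25 among G2-M cells.

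Within G2-M cells several groups lay on the other side. Of 23 LZ genes, 7 were higher in CDK2hi and 1 in CDK2low (median 0.25), of 10 MHC class II genes 6 were higher in CDK2hi and none in CDK2low (median 0.25), and of 18 B cell identity genes 10 and none (median 0.23). Cd86 was at 111 ± 12.9 CPM (SD, n = 5) in CDK2hi and at 65.8 ± 16.6 CPM in CDK2low G2-M cells (0.74 ± 0.12, adjusted p = 1.22e-05), against −0.76 ± 0.06 among G0-G1 and −1.002 ± 0.05 among S cells. Cd83 differed by 1.17 ± 0.18 (adjusted p = 3.44e-04), higher in CDK2hi in 4 of 5 mice, and Egr1 by 2.21 ± 0.39 (adjusted p = 2.52e-05). Cxcr4 was at 108 ± 5.63 CPM against 186 ± 28.8 CPM (−0.85 ± 0.09, adjusted p = 2.65e-09), higher in CDK2low in 5 of 5 mice, while among G0-G1 cells it differed by −0.045 ± 0.08 (adjusted p = 0.676). Among S cells it was called the other way, at 0.195 ± 0.06 (adjusted p = 0.00353, higher in CDK2hi in 6 of 7 mice). Among DZ-scored cells, whose score reads Cxcr4, it differed by −0.31 ± 0.04 (adjusted p = 8.08e-09). The differences between phases were not tested.

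Towards CDK2hi, the leading genes among G2-M cells included H2bc18, at 2.71 ± 0.14 (adjusted p = 1.46e-11). Towards CDK2low they included Pnpla7, a lysophospholipase, at 15.8 ± 1.52 CPM in CDK2hi and 42.2 ± 7.36 CPM in CDK2low (−1.37 ± 0.19, adjusted p = 5.88e-07), and Kynu, kynureninase, at −1.17 ± 0.17 (adjusted p = 9.88e-07). Of 78 genes of oxidative phosphorylation, 15 were higher in CDK2hi and 5 in CDK2low (median 0.07), shares near the 14.5% and 10.2% of all genes tested there. Of 80 ribosomal protein genes, 42 were higher in CDK2hi and 1 in CDK2low (median 0.15).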

How the data were processed

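Each of the 2 pools (CDK2hi and CDK2low) was a 10X Genomics 5′ library with hashtag and immunoglobulin libraries. The authors deposited matrices of raw UMI counts, genes and hashtags by cell, from Cell Ranger on mm39 (8.0.1 per the file headers, 6.0.1 in the submitters' processing notes, which also list Seurat 5.1.0). The library letters C and N were read as cytoplasmic and nuclear reporter. From there, hashtags were called with HTODemux in Seurat 5.3.0 (positive quantile 0.99). Of 9358 and 5206 barcodes, 7811 and 4478 went to a listed mouse, 921 and 507 carried hashtags of several mice, and 474 and 43 none. A hashtag of no listed mouse was on 152 and 178 barcodes. The study left out a sample with a small GC, and whether it had this hashtag is not given in the sources used here. Kept cells had 200 or more genes and a mitochondrial share of UMIs under 10%. Doublets within a mouse were not searched for, and cells with over 3 times the median UMIs (17 and 19) were left out in an alternative.

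UMIs were summed per mouse and pool and tested with edgeR 4.0.16 under R 4.3.3 (filterByExpr, TMM, robust quasi-likelihood fit, the mouse as a block, Benjamini-Hochberg adjustment over all genes tested, threshold 0.05). CPM are TMM-scaled. SE is that of the fitted log2 fold change. The pairing came from the mouse names of the authors' list, and in 7 of 7 mice the deviations of both populations correlated (r = 0.208 to 0.663 over 6763 genes) and each correlated best with its own mouse. Shares were tested with exact two-sided sign-flip tests over mice. Phases came from CellCycleScoring and zones from AddModuleScore, and mice with under 10 cells in a pool were left out of a comparison. Promoters were those of RefSeq, gene positions those of GENCODE on GRCm39. Other steps ran in Python 3.11.15 (scipy 1.17.1, numpy 2.4.6, pandas 2.3.3). The scripts were tested on simulated data.

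Genes named were a fixed set of cell cycle, zone and SHM genes, the 10 largest differences in each direction (mean log2 CPM above 4, the same direction in all mice), the 2 largest of each list (mean log2 CPM above 3) and the 5 largest of each direction within a phase or zone, except immunoglobulin genes and genes with only a clone name. Not every gene that the rule picked is named. The members, lists and tests were chosen with earlier results of these data known. The alternatives were DESeq2 1.42.0, its size factors in edgeR, library size alone, a library size without immunoglobulin, ribosomal protein and mitochondrial genes, UMIs per cell, no filter on genes or cells, the highest hashtag if it had 10 or more UMIs and 3 times those of the next, cells with the B1-8hi receptor pair (4732 and 2719), equal cell numbers, cells thinned to 5264 UMIs, no pairing, and each mouse left out. Transcripts of the Igh locus and some genes are not reported here.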

Additional observations from a re-analysis of the deposited data

Results flagged for a closer look

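Of 218 groups of 7 mice looked at, 7 had a sample whose gap to its nearest neighbour exceeded 0.568 of the group's range, and chance alone marks about 1 in 20 groups. In CDK2low cells of mouse M6, Klf2 was at 47.3 CPM (next 28.4 CPM) and Gpr183 at 41.0 CPM (next 17.6 CPM), in the same sum in which the CD3 genes stood apart. In CDK2low cells of mouse M10, Mki67 was at 531 CPM (next 434.4 CPM), Ezh2 at 191.7 CPM (next 165.4 CPM) and Rad51ap1 at 24.04 CPM (next 18.7 CPM), and this sum also had the lowest G0-G1 share of the CDK2low cells, 69.8%. The others were Ccng2 in CDK2low cells of M5 at 27.6 CPM and H2bc14 in CDK2hi cells of M5 at 249 CPM. Their part in the differences was given by leaving out each mouse and ended none of these calls.

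Several genes had log2 fold changes (CDK2hi minus CDK2low) of one sign in every mouse in one called phase and of the other sign in every mouse among G2-M cells, where 5 mice entered. The difference between phases was not tested. Cd86 was at −0.76 among G0-G1, −1.002 among S and 0.74 among G2-M cells. Ciita was at −0.51, −0.66 and 0.59, Il4i1 at −0.45, −1.15 and 0.92, Ebf1 at −0.56, −0.54 and 0.51, and Lck at −0.36, −0.44 and 0.996, in the same order. Bmf was at −0.85 among S and 0.86 among G2-M cells, and the latter did not pass the threshold (edgeR adjusted p = 0.204). Sec11c ran the other way, at 0.25, 0.35 and −0.39. The CDK2low G2-M cells of a mouse were 12 to 56 cells.

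Barcodes with a hashtag of no listed mouse numbered 152 in the CDK2hi and 178 in the CDK2low pool and entered no comparison.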

How the results depend on the processing

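The shares of phases and LZ cells and the UMIs per cell kept their direction under every alternative run, and with 6 mice the exact test cannot go below 0.0312. Leaving out each mouse in turn gave differences of 66.7 to 67.8 points for G0-G1, −20.8 to −18.8 for S, −48.1 to −45.9 for G2-M and 11.6 to 13.04 for LZ, and 3548 to 3679 genes higher in CDK2hi, 3666 to 3915 in CDK2low, 567 to 601 and 223 to 261 at least 2-fold. Among G2-M cells it gave 1363 to 2164 genes, the lowest without mouse M1, against 2176. The counts moved by over 1.5 times with the scale. Genes higher in CDK2hi numbered 2406 with library size alone and 1137 per cell, and genes higher in CDK2low 7894 per cell. Genes at least 2-fold higher in CDK2hi were 332 per cell, and those in CDK2low 451 with library size alone, 420 without the filter on low counts and 1311 per cell. Calls towards CDK2hi made up 48.6% of all, 29.2% with library size alone and 12.6% per cell, and the median of all genes was −0.03, −0.22 and −0.52. The per-cell scale includes the higher UMIs of CDK2low cells. Named genes that changed sign per cell were Cdk6 (−0.24), Rbl2 (−0.46), Myc (−0.41), Ung (−0.048), Msh6 (−0.001), Apex1 (−0.23), Neil1 (−0.38), Sec11c (−0.12), mt-Atp8 (−0.000) and Cst3 (−0.38), and with library size alone Rbl2 (−0.16), Neil1 (−0.092) and Cst3 (−0.085). Without the pairing (no replicate block) 3433 genes were higher in CDK2hi and 3601 in CDK2low, and of the 104 named genes only Cst3 lost its call. DESeq2 called 3323 and 3299. The cause of the changes in Ccnd2 with equal cell numbers (−1.07, adjusted p = 0.0606) and in Myc after thinning (0.31, adjusted p = 0.00415) was not tested.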
